A study of Arabidopsis thaliana with 6 samples.

Results

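The 5 genes described here code for lipid-transfer-like proteins or GDSL-type lipases of Arabidopsis thaliana. They are AT1G62500 and AT5G55450 in the first family, and AT1G75880, AT5G33370 and AT5G55050 in the second. They were chosen by locus, each has 1 probe set of a single gene on the Affymetrix ATH1 array, and they are 5 of 13286 loci that could be named. Shoots of 3-week-old seedlings were profiled on 6 arrays, 3 from line 14 of EBE-XVE in the Col-0 background and 3 from wild-type (WT) Col-0. In EBE-XVE plants EBE, locus AT5G61890, can be switched on by estradiol; EBE is an AP2/ERF transcription factor, and the series was made to find its early targets. All plants of both genotypes had spent 16 h in shaken liquid medium and then received 2 µM β-estradiol for 45 min, so no uninduced plants and no second line were among these arrays. A trait of line 14 and an effect of induced EBE therefore cannot be told apart. Neither the promoter that drives the estradiol receptor nor the number of seedlings per sample is stated in the labels.

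Lipid-transfer proteins are small secreted proteins held together by conserved cysteines, which form a pocket for fatty acids and other lipids. Many are made in the epidermis, where they are linked to the delivery of cuticle lipids, and others take part in defence signalling. GDSL lipases are named after a Gly-Asp-Ser-Leu motif at the active serine. Most are secreted, and members of this large plant family build or cut cutin, act in defence or coat pollen. Where a role or an alias of a single locus is given below, it comes from general knowledge and not from the annotation tables, which list these 5 genes by locus only.

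Signals are the authors' log2 values per probe set. On the EBE-XVE array labelled 3 the EBE signal was not raised, although its label gives line 14 treated with estradiol. The reason was not tested. EBE read 8.55, 7.21 and 3.19 on EBE-XVE arrays 1, 2 and 3, against 4.26, 2.98 and 3.02 on the WT arrays of the same numbers. EBE thus differed by 4.29, 4.23 and 0.17 within the pairs and by 2.90 between the means (SE 1.38, adjusted p = 1.00 in limma), and values for the 5 genes are given with and without that array. Replicate 1 of both genotypes stood apart, with a median signal of 5.38 in EBE-XVE and 5.47 in WT, beside 4.44 to 4.50 on the other arrays. The shoot markers RCA and LHCB4.1, of photosynthesis, read 13.10 to 14.20 on all 6 arrays, and they were the only 2 of 15 listed that had a named probe set. None of 5 listed shoot epidermis markers had one. In limma 0 of 22746 probe sets passed an adjusted p under 0.05 between EBE-XVE and WT, with 79 at an unadjusted p under 0.05, so 0 of the 5 genes were called beside a share of 0% of all probe sets. Group was the only term of this fit, so the difference of replicate 1 stayed in its residual spread and made it less sensitive. With a replicate block 462 probe sets had an unadjusted p under 0.05 in limma, and 0 passed.

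The 5 genes were chosen with their differences between EBE-XVE and WT known, so these differences are given as a description and without a test. Differences are EBE-XVE minus WT on the log2 scale, within the pairs of arrays that share a replicate number or between group means with the SE of the limma fit.

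AT1G62500, a lipid-transfer-like gene whose promoter is used as a marker of the root cortex, had less signal on every EBE-XVE array. It read 4.65, 3.98 and 4.51 on EBE-XVE arrays 1, 2 and 3, against 6.60, 6.36 and 6.26 on the WT arrays. The groups did not overlap, and the highest EBE-XVE array lay 1.61 below the lowest WT array. Such a separation downwards was found for 0.892% of all probe sets. Differences within pairs 1, 2 and 3 were -1.95, -2.38 and -1.74. The means were 4.38 ± 0.36 in EBE-XVE and 6.40 ± 0.17 in WT (SD, n = 3 each), a difference of -2.03 (SE 0.31) or 4.07-fold. Pair 3, in which EBE was not raised, thus showed a deficit close to that of pairs 1 and 2. Without the EBE-XVE array labelled 3, and with replicate 1 as a batch term, the difference was -2.17.

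AT5G55450, the other lipid-transfer-like gene, also had less signal in EBE-XVE within every pair, but its level moved strongly with the replicate. It read 8.58, 6.75 and 5.87 on EBE-XVE arrays 1, 2 and 3, against 9.96, 7.82 and 7.60 on the WT arrays. The groups overlapped, since EBE-XVE array 1 lay above WT arrays 2 and 3. Differences within pairs 1, 2 and 3 were -1.38, -1.07 and -1.73. The means were 7.06 ± 1.38 in EBE-XVE and 8.46 ± 1.305 in WT (SD, n = 3 each), a difference of -1.39. The SE of that difference was 0.92 without a replicate block and 0.18 with it. In fits without a block the difference was -0.64 when WT array 1 was left out, -0.80 without the EBE-XVE array labelled 3 and -2.15 without EBE-XVE array 1. With replicate 1 as a batch term, the fit without the EBE-XVE array labelled 3 gave -1.14.

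AT1G75880, known as EXL1, belongs to a run of neighbouring genes for extracellular lipases, some of which are found in the pollen coat. It was the one gene of the 5 with more signal on every EBE-XVE array. It read 6.21, 5.86 and 6.03 on EBE-XVE arrays 1, 2 and 3, against 4.63, 4.65 and 4.44 on the WT arrays. The groups did not overlap, with a gap of 1.2002 between them, and a separation upwards was found for 0.488% of all probe sets. Differences within pairs 1, 2 and 3 were 1.58, 1.2002 and 1.59. The means were 6.03 ± 0.18 in EBE-XVE and 4.57 ± 0.12 in WT (SD, n = 3 each), a difference of 1.46 (SE 0.26) or 2.75-fold. The value in pair 3 was again as large as in the pairs with raised EBE, and without the EBE-XVE array labelled 3 the batch-term fit gave 1.43.

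AT5G33370, known as CUS2, codes for a cutin synthase that takes part in the ridges of the sepal cuticle. Its signal was low on all EBE-XVE arrays and on 1 WT array. It read 1.70, 1.93 and 1.97 on EBE-XVE arrays 1, 2 and 3, against 1.69, 4.59 and 4.33 on the WT arrays. Only WT arrays 2 and 3 stood above the lower quartile of their array, which was 2.50 to 2.67 over the 6 arrays. Differences within pairs 1, 2 and 3 were 0.01, -2.66 and -2.36, the last 2 being 6.31-fold and 5.13-fold. The means were 1.87 ± 0.14 in EBE-XVE and 3.54 ± 1.60 in WT (SD, n = 3 each), a difference of -1.67 (SE 0.76). Within replicates 2 and 3 alone it was -2.51. Without the EBE-XVE array labelled 3 the batch-term fit gave -1.44. In fits without a block it was -2.59 without WT array 1 and -1.14 without WT array 2. No detection calls were used here, so whether the low arrays were above background was not tested.

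AT5G55050, a GDSL-type lipase gene, had more signal in EBE-XVE in pairs 1 and 2 and not in pair 3, the pair in which EBE was not raised. It read 5.33, 5.26 and 3.30 on EBE-XVE arrays 1, 2 and 3, against 4.24, 3.22 and 3.51 on the WT arrays. EBE-XVE arrays 1 and 2 lay above all WT arrays, while the EBE-XVE array labelled 3 lay among them. Differences within pairs 1, 2 and 3 were 1.09, 2.04 and -0.21, beside 4.29, 4.23 and 0.17 for EBE. The means were 4.63 ± 1.16 in EBE-XVE and 3.66 ± 0.52 in WT (SD, n = 3 each), a difference of 0.97 (SE 0.63). Without the EBE-XVE array labelled 3 it was 1.64 with no block and 1.55 (SE 0.23) with the batch term. In fits without a block it was 0.62 without EBE-XVE array 1 and 0.66 without EBE-XVE array 2. At least 2-fold more signal in both of the first pairs and no more in pair 3 was found for 35 probe sets, or 0.154% of all.

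**Figure D1:**
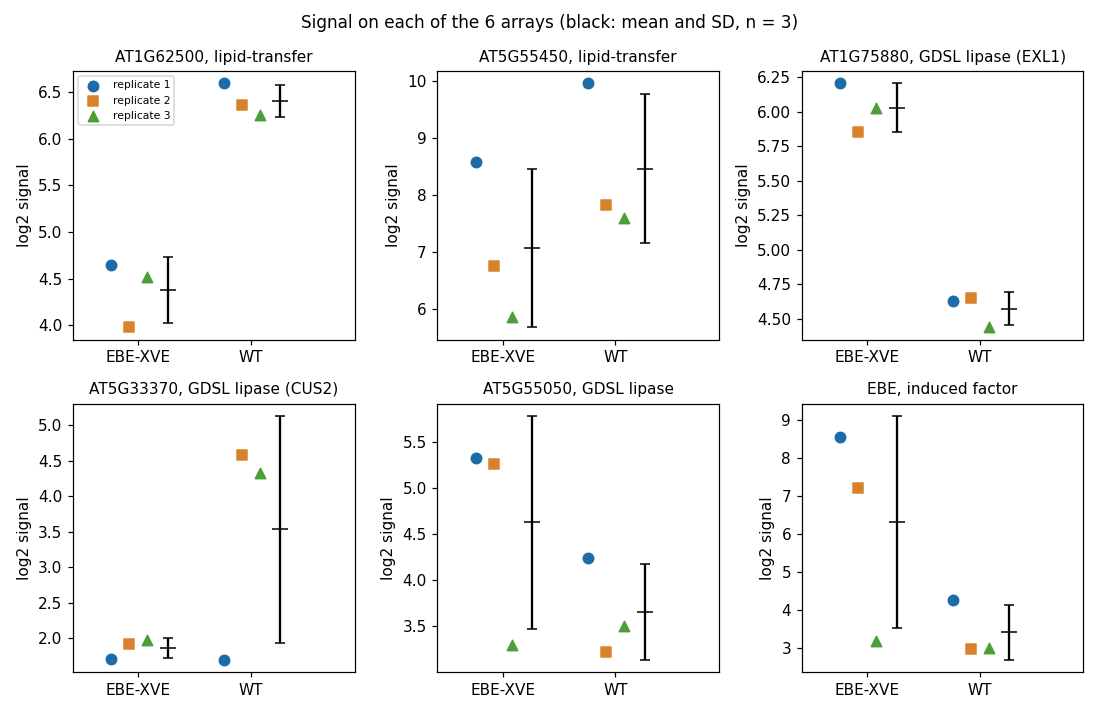
Log2 signal (vertical axis of each panel, own range) on the 3 EBE-XVE and 3 WT arrays for the 5 genes and EBE, with colour and shape for the replicate and black bars for mean and SD (n = 3). AT1G62500 and AT1G75880 are the panels in which the groups stay apart, AT5G33370 has WT array 1 at 1.69 beside 4.59 and 4.33, and AT5G55050 and EBE share a low EBE-XVE array labelled 3 (3.30 and 3.19).

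Set side by side, 3 of the 5 genes differed by at least 2-fold in the same direction in every pair. AT1G62500 and AT5G55450 were among 12 probe sets lower in this way (0.0528%), and AT1G75880 was 1 of 2 that were higher (0.00879%); this repeats the contrast by which the genes were chosen. AT5G33370 lacked a difference in pair 1 and AT5G55050 in pair 3. The families did not divide by direction, since both lipid-transfer-like genes and AT5G33370 were below WT in the group means while the GDSL genes AT1G75880 and AT5G55050 were above. These directions of the group means were the same under quantile normalization and median centring.

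**Figure D2:**
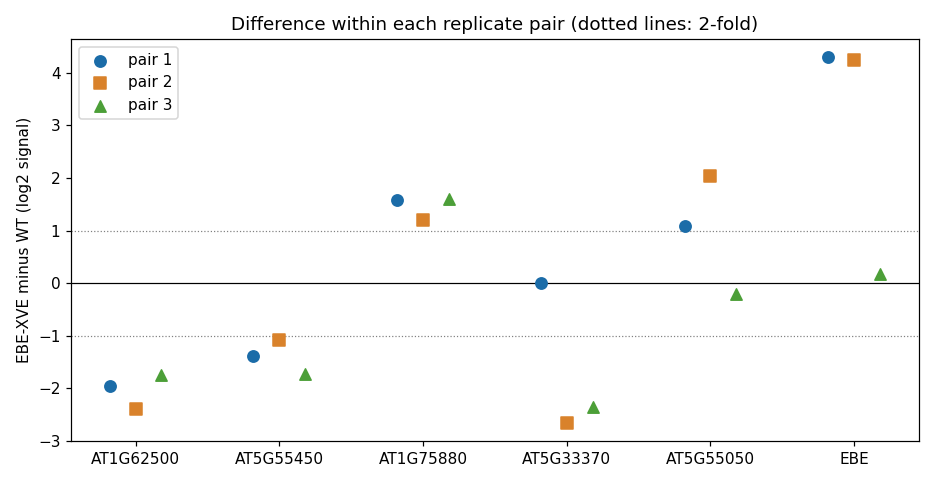
EBE-XVE minus WT in log2 signal (vertical axis) within pairs 1, 2 and 3 for the 5 genes and EBE (horizontal axis), with dotted lines at 2-fold. AT1G62500, AT5G55450 and AT1G75880 lie beyond 2-fold in all pairs, whereas AT5G33370 is at 0.01 in pair 1 and AT5G55050 at -0.21 in pair 3.

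The choice of the genes rested on the genotypes, and the difference of replicate 1 from replicates 2 and 3 was therefore tested in the same arrays, with genotype as a second term in limma. AT5G55450 was higher in replicate 1 in both genotypes, by 2.27 in EBE-XVE and 2.25 in WT. The fitted shift was 2.26 (SE 0.26, adjusted p = 0.0012 in limma), beside 45.5% of all probe sets called higher and 14.1% called lower. The shift was 1.62 with quantile normalization and 1.31 with median centring (adjusted p = 0.00645 and 0.0025 in limma). Over all probe sets the median shift was 0.28 as deposited, -0.05 with quantile normalization and -0.67 with median centring. Counts were 5165 higher and 8322 lower with quantile normalization (22.7% and 36.6% of all), and 2237 higher and 13620 lower with median centring (9.83% and 59.9%). AT5G55450 thus lay above the median shift as deposited and with quantile normalization. Median centring takes a constant from each array and moves every shift by the same amount, so it could not change this place.

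Of 14 listed root markers 4 had a named probe set, and the log2 of their summed linear signal was 13.13, 11.90 and 11.57 on EBE-XVE arrays 1, 2 and 3, against 13.17, 11.68 and 11.65 on the WT arrays. The sum was thus high in replicate 1 of both genotypes, as the median signal of these arrays was, with a larger rise at PYK10 than at MT1C. PYK10, a root β-glucosidase gene, read 12.14 in EBE-XVE and 12.26 in WT in replicate 1, against 8.58 to 9.21 on the other arrays. MT1C, a metallothionein gene, read 12.11 in EBE-XVE and 12.08 in WT in replicate 1, against 11.25 to 11.72. The root hair genes EXPA7 and EXPA18 stayed between 1.75 and 2.13 on all arrays, below each array's lower quartile. EXPA7 went the other way from the sum, at 1.76 in EBE-XVE and 1.75 in WT in replicate 1, against 2.11 to 2.13. The part of root tissue in the shift of AT5G55450 was not tested. In bulk RNA, fewer cells of a type and less RNA per cell cannot be told apart.

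AT5G33370 differed between replicate 1 and the others by -0.24 in EBE-XVE, where all its values were low, and by -2.76 in WT. Its fitted shift was -1.50 (SE 0.54) and did not pass (adjusted p = 0.0565 in limma). It passed with median centring at -2.46 (adjusted p = 0.0031 in limma), and not with quantile normalization at -1.59 (adjusted p = 0.0973 in limma). It also passed at -2.76 without EBE-XVE array 1, which leaves the shift to WT, and at -1.69 without EBE-XVE array 2. Whether the shift differed between the genotypes was not tested.

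The other 3 genes were not called for replicate 1 on the deposited values, and what the other scalings gave differed among them. AT1G62500 shifted by 0.34 as deposited (adjusted p = 0.19 in limma), but by -0.48 with quantile normalization (adjusted p = 0.118 in limma). With median centring its shift was -0.61 and passed as lower (adjusted p = 0.0346 in limma). AT1G75880 shifted by 0.17 as deposited (adjusted p = 0.38 in limma), but by -0.71 with quantile normalization and -0.78 with median centring. AT1G75880 passed as lower under both (adjusted p = 0.0200 and 0.0069 in limma). AT5G55050 shifted by 0.96 as deposited (adjusted p = 0.17 in limma), and by 0.17 and 0.01 with those scalings (adjusted p = 0.82 and 0.99 in limma). Without EBE-XVE array 2 the shift of AT5G55050 was 1.37 and passed (adjusted p = 0.0124 in limma).

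**Figure D3:**
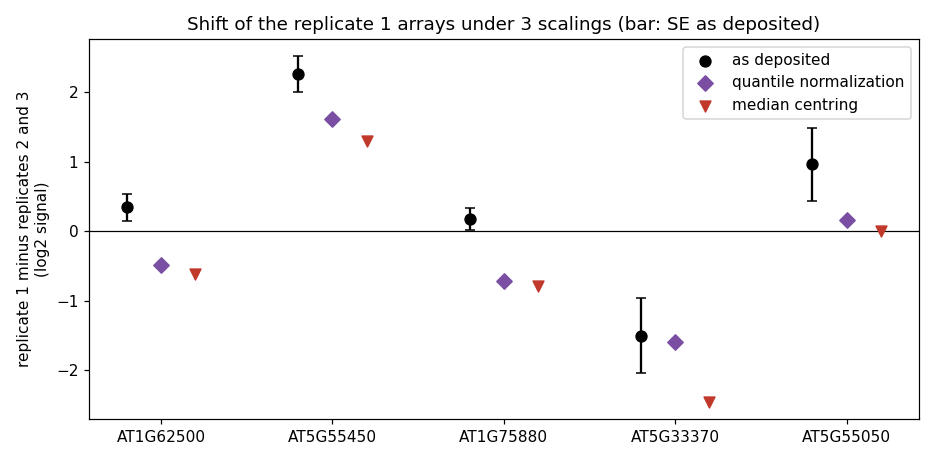
Replicate 1 minus replicates 2 and 3 in log2 signal (vertical axis) for the 5 genes (horizontal axis), fitted with genotype as a term on the deposited values (black, with SE) and after quantile normalization or median centring. AT5G55450 lies above 0 and AT5G33370 below 0 under the 3 scalings, while AT1G62500 and AT1G75880 change sign.

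Other lipid-transfer-like genes were read from a list of 31 loci written from general knowledge, of which 11 had a named probe set. Of the 11, 0 passed in either direction in limma and 0 had an unadjusted p under 0.05, beside 0% of all probe sets called. Below WT were 9 and above were 2, the same split under both other scalings, with 8 below WT when the EBE-XVE array labelled 3 was left out with the batch term. Their median difference was -0.22, beside 0.00 (-0.0044) over all probe sets, of which 59.9% were below WT. Medians within pairs 1, 2 and 3 were -0.32, -0.01 and -0.07.

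AT5G48490, a relative of the defence signalling gene DIR1, had the lowest difference of the 11. It read 6.41, 6.43 and 8.55 on EBE-XVE arrays 1, 2 and 3, against 8.66, 8.07 and 7.93 on the WT arrays. EBE-XVE arrays 1 and 2 lay below all WT arrays, and the EBE-XVE array labelled 3 lay just under the highest. Its difference was -1.09 (SE 0.64, adjusted p = 1.00 in limma) and -1.86 without the EBE-XVE array labelled 3 in the batch-term fit.

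AT4G12500 and its neighbour AT4G12490, of the EARLI1 gene cluster known from cold and defence responses, gave opposite signs in pairs 2 and 3. AT4G12500 differed by -1.25, 1.90 and -2.41 within pairs 1, 2 and 3, and by -0.59 between the group means (SE 1.49). That value turned to 0.53 without the EBE-XVE array labelled 3 in the batch-term fit. AT4G12490 differed by -0.42, 2.10 and -2.12 within the pairs. AT4G12490 read 11.79, 11.40 and 7.35 on EBE-XVE arrays 1, 2 and 3, against 12.21, 9.31 and 9.47 on the WT arrays, so arrays of 1 genotype lay several log2 units apart.

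AT5G05960 differed by -1.01, -0.42 and 0.23 within the pairs and by -0.40 between the means. AT4G22460 had the highest difference of the 11 at 0.23, with 0.76, 0.01 and -0.07 within the pairs. AT1G62510, which lies next to AT1G62500 on the chromosome, differed by 0.18 between the means. It read 7.02, 7.76 and 9.57 on EBE-XVE arrays 1, 2 and 3, against 8.29, 7.74 and 7.76 on the WT arrays, so it did not have the separation of its neighbour. No probe set was named for AT5G55410 or AT5G55460, which were to be given for their place near AT5G55450.

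Other GDSL lipase genes were read from a list of 33 loci, of which 17 had a named probe set. Of the 17, 0 passed in either direction in limma, beside 0% of all probe sets. At an unadjusted p under 0.05 in limma were 2 of the 17, beside 79 of 22746 over all probe sets. Below WT were 13 on the deposited values, beside 59.9% of all probe sets. The count was 12 with quantile normalization, 9 with median centring and 10 without the EBE-XVE array labelled 3 in the batch-term fit. For these settings the share of all probe sets below WT was not computed. Their median difference was -0.03, with 14 of the 17 within 0.5 of 0, and 10 of the 17 had a mean signal under 4. In 3 of the 17, AT5G45670, AT1G29670 and AT1G75900, every EBE-XVE array lay below every WT array, as for 0.892% of all probe sets, with gaps of 0.07, 0.12 and 0.08.

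AT1G54020, a myrosinase-associated member, had the lowest difference at -1.07 (SE 0.62), with -2.36, -0.78 and -0.06 within pairs 1, 2 and 3. AT5G45670 differed by -0.85 (SE 0.34), with -1.35, -0.98 and -0.22 within the pairs. It read 7.29, 7.57 and 8.47 on EBE-XVE arrays 1, 2 and 3, against 8.64, 8.55 and 8.70 on the WT arrays. AT1G29670 differed by -0.66 (SE 0.25), with -1.36, -0.38 and -0.26 within the pairs. It read 10.27, 10.58 and 10.84 on the EBE-XVE arrays, against 11.62, 10.96 and 11.10 on the WT arrays. The last pair of genes were the 2 with an unadjusted p under 0.05, and their adjusted p was 1.00 in limma.

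AT3G48460 had the highest difference at 0.36 (SE 0.39), with -0.14, 0.18 and 1.06 within the pairs. AT5G18430 differed by 0.13 and AT1G29660 by 0.01. Of the lipase genes in the run that holds AT1G75880, 3 had a named probe set. AT1G75890 differed by -0.01 and stayed between 2.48 and 2.60 on all arrays. AT1G75900 differed by -0.38 (SE 0.26), and by -0.29, -0.79 and -0.08 within the pairs. AT1G75920 differed by -0.07. No probe set was named for AT1G75910, AT1G75930 or AT3G04290, which were to be given as well. The size of 1.46 at AT1G75880 was thus not seen at these neighbours, although the difference between the genes was not tested.

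**Figure D4:**
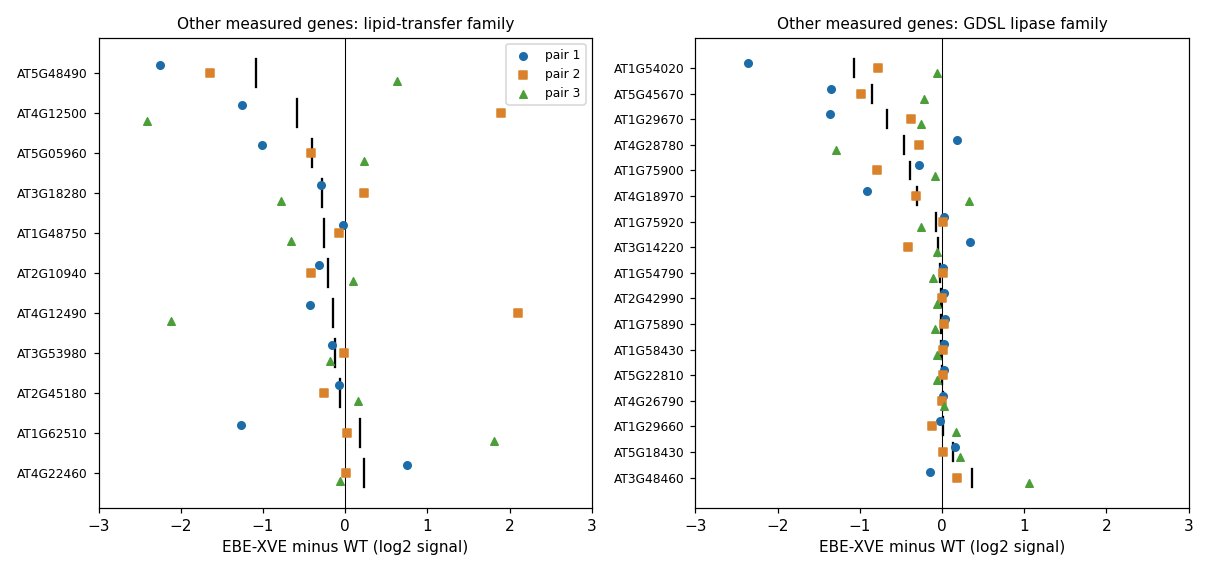
EBE-XVE minus WT in log2 signal (horizontal axis) within pairs 1, 2 and 3 (points) and between group means (black ticks) for the other measured lipid-transfer-like genes (left, 11 loci) and GDSL lipase genes (right, 17 loci). No gene passed, AT5G48490 and AT1G54020 have the lowest means, and AT4G12490 and AT4G12500 lie far apart in pairs 2 and 3.

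The replicate 1 shift was also read for these lists. Of the 11 lipid-transfer-like genes 2 were called higher and 1 lower, and of the 17 GDSL genes 3 were called higher and 4 lower, beside 45.5% and 14.1% of all probe sets. With quantile normalization 2 were called higher and 2 lower of the 11, and 3 higher and 7 lower of the 17. With median centring 1 was called higher and 5 lower of the 11, and 0 higher and 13 lower of the 17. Among the 11 the balance of these counts thus moved with the scaling, as it did over all probe sets. Among the 17 more were called lower than higher under each scaling, also on the deposited values, where more of all probe sets were called higher. Of those called lower as deposited, AT1G58430, AT4G26790 and AT5G18430 shifted by only -0.07, -0.18 and -0.27. Their signals stayed between 2.09 and 2.96 on all arrays. Over all probe sets the lower calls fell from 3214 to 749 with dim probe sets left out, where fewer were tested. The part of low signal in the balance among the 17 was not tested. AT3G18280 was higher in replicate 1 by 1.82 (adjusted p = 0.0025 in limma), and by 1.23 with quantile normalization and 0.86 with median centring. AT4G28780 was lower by -0.92 (adjusted p = 0.0376 in limma), and by -1.37 and -1.87 with those scalings. AT4G28780 read 3.12, 3.86 and 3.26 on EBE-XVE arrays 1, 2 and 3, against 2.94, 4.13 and 4.55 on the WT arrays. AT3G18280, AT4G28780, AT1G58430 and AT4G26790 were named after their values were seen.

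The cuticle list held 40 loci for cutin, wax and their regulation, of which only 3 had a named probe set. Of the 3, 0 passed, beside 0% of all probe sets. AT5G61590, a repressor of wax genes known as DEWAX, differed by -0.57 (SE 0.39), with -0.50, -0.04 and -1.16 within the pairs. WSD1, a wax ester synthase, differed by -0.22, with -0.01, -0.45 and -0.19 within the pairs. SHN3, an AP2/ERF activator of cutin genes, differed by 0.00 (-0.0029), or 0.00 with quantile normalization and 0.02 with median centring, and stayed between 2.01 and 2.12 on all arrays. The list is too thinly measured to describe the cuticle pathway here.

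The genes nearest in pattern were found by the root mean square (RMS) distance between values centred on each gene's own mean over the 6 arrays, among 13431 named probe sets. Nearness rests on the same 6 arrays and on the same differences by which the genes were chosen. AT5G55050 had the closest partner, AT1G77640, an AP2/ERF family gene, at a distance of 0.11 beside a spread of 0.88 of AT5G55050 itself. AT1G77640 read 4.88, 4.76 and 2.86 on EBE-XVE arrays 1, 2 and 3, against 3.95, 3.00 and 3.26 on the WT arrays. AT2G27660 came next at 0.25, and 4 probe sets lay within 0.3.

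The other genes had no probe set within 0.3. Nearest to AT1G62500 were AT1G68875 at 0.48 and AT2G28790, a thaumatin-like gene, at 0.53. Nearest to AT5G55450 were AT2G38870, a protease inhibitor gene, at 0.43 and AT4G29700 at 0.49. AT2G38870 read 10.77, 9.20 and 8.22 on EBE-XVE arrays 1, 2 and 3, against 12.24, 9.12 and 9.19 on the WT arrays, high in replicate 1 as AT5G55450 was. Nearest to AT1G75880 were AT5G18460 at 0.38 and FMA, the stomatal regulator also written FAMA, at 0.43. FMA read 6.01, 5.36 and 5.91 on the EBE-XVE arrays, against 5.52, 4.60 and 4.62 on the WT arrays.

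Nearest to AT5G33370 were AT2G20670 at 0.46 and AT2G20870 at 0.60. AT2G20670 read 4.12, 5.68 and 5.49 on EBE-XVE arrays 1, 2 and 3, against 4.43, 7.60 and 7.65 on the WT arrays. AT2G20870 read 2.84, 1.98 and 2.02 on the EBE-XVE arrays, against 3.09, 5.82 and 5.81 on the WT arrays. Both thus had WT array 1 far below WT arrays 2 and 3, as AT5G33370 did.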

How the data were processed

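Total RNA from shoots was hybridised to one-colour Affymetrix ATH1 arrays, per the labels' protocols. The deposited values are log2 signals per probe set made by the authors; GCRMA and RMA are listed by the submitters' processing notes, with no version and no role for either. Their log base was not stated and was read from the range of the values. Of 22810 probe sets, 64 controls were left out and 22746 tested. Names came from the platform annotation and a gene table of assembly TAIR10.1: 13513 probe sets had 1 symbol, 503 several and 8730 were unnamed here. Sample titles gave the group and the number of each replicate, described there as biological.

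limma 3.58.1 in R 4.3.3 was used with lmFit, eBayes with a mean-variance trend and Benjamini-Hochberg adjustment over all probe sets, 2-sided, with group alone, or group and replicate 1 against the rest. The group fit with a replicate block and the fit for replicate 1 were tested on simulated data, and the fit with group alone was not. For the group fit the simulated replicate 1 shifts were random and not those of the data. No recovery rate is given here, so the simulation backs none of the counts above. The replicate numbers were treated as pairs, since deviations from group means correlated at 0.79, 0.54 and 0.58, but arrays 2 and 3 matched across numbers as well (0.55 and 0.60). Named genes were the 5 genes, EBE, the 3 largest differences each way per list, listed neighbours and the 2 nearest in pattern; for each locus the probe set of highest mean was taken. The genes and lists were chosen with earlier results of these data known. Alternatives were a replicate block, each array left out in turn, median centring or quantile normalization, no trend in eBayes, and only probe sets above the 40th percentile of mean signal; fits with a replicate 1 batch term, also without the EBE-XVE array labelled 3, and within replicates 2 and 3 were chosen after seeing the data. The number of arrays limits precision. Promoter and protein sequences were not analysed here. Cross-hybridisation between related genes was not assessed.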

Additional observations from a re-analysis of the deposited data

How the results depend on the processing

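The differences of the 5 genes between EBE-XVE and WT kept their direction under all alternatives run, with ranges of -2.17 to -1.82 for AT1G62500, -2.15 to -0.64 for AT5G55450, 1.37 to 1.55 for AT1G75880, -2.59 to -1.14 for AT5G33370 and 0.62 to 1.64 for AT5G55050. AT5G33370 was too dim to be kept above the 40th percentile. The replicate block, the batch term on all arrays, no trend and leaving out dim probe sets cannot change these differences, only their SE. Median centring moved every difference by the same amount. The whole-array counts, 0 higher and 0 lower, and the 0 called genes in each family, stayed at 0 when any array was left out and with the replicate block, which changed no call; 462 probe sets then had an unadjusted p under 0.05, beside 79 without the block. With the block the AT1G62500 difference stayed at -2.03 (SE 0.20). The batch term without the EBE-XVE array labelled 3 left 1 probe set higher, EBE at 4.25 (adjusted p = 0.0316 in limma). That array was set apart for its low EBE signal, so this p-value is no independent test of EBE. Replicates 2 and 3 alone gave 3 lower. EBE was 1.78 to 4.46 when each array was left out. For replicate 1 the counts of 10355 higher and 3214 lower became 5165 and 8322 with quantile normalization and 2237 and 13620 with median centring, so that 76.3%, 38.3% and 14.1% of the calls were higher under the 3 scalings. Lower counts were 749 with dim probe sets left out, where fewer were tested, and 1743 without trend. When each array was left out, 7986 to 10868 were higher and 1966 to 3762 lower, the lowest without WT array 1. The shift turned for AT1G62500 (-0.48 and -0.61) and AT1G75880 (-0.71 and -0.78) with quantile normalization and median centring. With median centring AT1G62500, AT1G75880 and AT5G33370 (-2.46) passed as lower, and with quantile normalization AT1G75880 did. When each array was left out, the shift of AT5G33370 was -2.76 to -0.24 and that of AT5G55050 was 0.53 to 1.37. Median centring takes a constant from each array, so it lowered every replicate 1 shift by the same amount. The cause of the other changes was not tested.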

Other observations

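Genes next to the 5 on the chromosome, by gene order in TAIR10.1, were read after the data were seen, within 3 protein-coding genes on each side where a probe set was named. Near AT1G62500, AT1G62480 had lower signal on the EBE-XVE arrays, at 10.86, 10.92 and 11.17, against 11.56, 11.45 and 11.55 on the WT arrays. The groups did not overlap, as for 0.892% of all probe sets in this direction, and the difference was -0.54 (SE 0.16). AT1G62490, between the 2, differed by 0.00 and stayed between 2.17 and 2.29. Near AT1G75880, AT1G75860 differed by 0.27 (SE 0.35) and AT1G75870 by -0.08 (SE 0.08).

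Next to AT5G55050, AT5G55060 was high in replicate 1 of both genotypes. It read 6.62, 3.59 and 3.76 on EBE-XVE arrays 1, 2 and 3, against 6.41, 3.78 and 3.95 on the WT arrays, a difference of -0.05 (SE 1.09) between the genotypes. On the other side AT5G55040 differed by 0.24 (SE 0.47). Neither had the pattern of AT5G55050 over the pairs. AT5G55070, on the same side as AT5G55060, differed by 0.53, 0.48 and -0.32 within pairs 1, 2 and 3. AT5G55070 was thus higher in pairs 1 and 2 and lower in pair 3, as AT5G55050 was, with smaller differences in pairs 1 and 2. AT5G55010 had the same signs at 0.10, 0.01 and -0.11, but stayed between 2.62 and 2.73 on all arrays. No probe set was named for the 3 genes on each side of AT5G55450.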
